A study of Mus musculus with 3 samples.

Results

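The genes described here encode 10 surface molecules through which macrophages stimulate or restrain other immune cells, namely *Cd40*, *Cd80*, *Cd83*, *Cd86*, *Cd274*, *Pdcd1lg2*, *Icosl*, *Havcr2*, *Cd200r1* and *Sirpa*. They were taken by gene symbol, as all gene probes that carry 1 of these names, from the 26840 genes on the microarray. Together they had 19 probes, of which 14 gave a signal well above background on every array, the detection call of the array software.

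An antigen-presenting macrophage engages T cells through peptides on MHC molecules and through a further layer of surface proteins. CD80 and CD86 bind CD28 and CTLA-4, ICOSL binds ICOS, and CD40 is the receptor for CD40L on activated T cells, while PD-L1 and PD-L2 (*Cd274*, *Pdcd1lg2*) engage the inhibitory receptor PD-1. TIM-3 (*Havcr2*), CD200R (*Cd200r1*) and SIRPα (*Sirpa*) are receptors that dampen the myeloid cell that carries them, and LPS, the ligand of TLR4, is a classical trigger of several of these genes.

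RNA of RAW 264.7 cells, a mouse macrophage line, was hybridized in 1 colour (Cy3) to SurePrint G3 Mouse GE arrays. There was 1 array for each of 3 conditions, which were LPS alone, *L. rhamnosus* CRL1505 followed by LPS (CRL1505 + LPS) and *L. plantarum* CRL1506 followed by LPS (CRL1506 + LPS). All cells, those of the LPS array included, received LPS at 50 ng/mL, and the treated cells had been given lactobacilli at 50000000 cells/mL for 24 h and washed. The LPS exposure was 12 h in the study's methods and 3 h in the descriptions of the samples. Arrays of cells without LPS were not analysed here, so that each ratio sets 1 LPS-stimulated culture against another. In RNA of a whole culture fewer cells with a transcript and less transcript per cell cannot be told apart.

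With 1 array per condition no test was possible and no p-value is given. The arrays of LPS and CRL1506 + LPS shared a slide and a scan run, and the CRL1505 + LPS array had a slide and a run of its own, so an effect of CRL1505 and one of its slide cannot be told apart in any value below. Between 48.5% and 55.3% of gene spots were well above background, and the signal at the 75th percentile was 743.1 with LPS, 517.0 with CRL1505 + LPS and 697.9 with CRL1506 + LPS. Signals are given background-subtracted and not scaled between arrays. Because the arrays differed in this percentile, each level is the log2 signal minus the 75th percentile of its array. Each ratio is a difference of such levels, from the brightest probe of the gene. The only measures of error were within arrays: the log2 ratio had a median SD of 0.048 (CRL1505 + LPS) and 0.043 (CRL1506 + LPS) over repeated spots of a probe, and of 0.23 and 0.21 over different probes of a gene. All 9 macrophage markers examined, among them *Adgre1*, *Cd68*, *Csf1r* and *Lyz2*, were well above background on every array. Single macrophage markers differed between the arrays, with log2 ratios against LPS of 2.27 (CRL1505 + LPS) and 1.003 (CRL1506 + LPS) for *Adgre1*, of 2.401 and 0.95 for *Fcgr1* and of −1.47 and −0.87 for *Csf1r*. Of 7 dendritic cell markers 3 or 4 were detected, with *Xcr1* and *Clec9a* on no array and *Siglech* on all, of 7 T cell markers 4 or 5, with *Cd3g* and *Cd8a* on none and *Cd3d*, *Cd3e*, *Cd4* and *Lck* on all, and of 6 B cell markers 3 or 4, with *Cd79a* on none and *Ms4a1*, *Pax5* and *Cd22* on all. *Lck* had log2 ratios of 1.46 and 0.52. Signals relative to the 75th percentile of the array were also summed over each list and the log2 of the sum taken. This value lay between 9.19 and 9.49 for the macrophage markers and between 6.21 and 6.73 for the dendritic cell markers. For the T cell markers it lay between 2.60 and 3.50 and for the B cell markers between −0.35 and 0.14. The brightest genes weigh most in such a sum, and *Siglech* alone had levels of 6.19 (LPS), 6.54 (CRL1505 + LPS) and 6.71 (CRL1506 + LPS). Of 6 fibroblast and epithelial markers 0, 0 and 1 were detected with LPS, CRL1505 + LPS and CRL1506 + LPS. The part of these differences in the results was not tested.

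A microarray reads a gene through the 60 bases of its probe, and for some of these genes the probe decided the result. The stretches printed are 30 bases of the probes on which the results turn, named by gene and by the position in the transcript at which the probe starts. They are shown for *Cd274*, *Havcr2* and *Cd83*, the genes with the widest ratios, and for the genes whose probes gave different ratios (of *Cd86*, the brightest probe and the one that stood apart). Capitals mark AATAAA, the usual polyadenylation signal, which 5529 of the 56605 gene probes (9.77%) and 2 of the 19 probes of these genes held. All stretches are bases 1 to 30 of their probe except that of *Cd86* at 2473, which is bases 28 to 57.
Cd274 at 3416: ttgatgagtctcatgttaatgtcttgtttg
Havcr2 at 2617: ctaacaaaatccattagagataacagctct
Cd83 at 1914: agctattgcgccacgacaggaggaagttct
Cd86 at 2473: agagtggatttcAATAAAgttttcttgaat
Cd86 at 915 of another transcript: tggatgggtcaaacataactagaatcgtag
Icosl at 363: tttcaacttgagtggtctgtatgtctattg
Icosl at 2139: aatgagtgtagagagaactacttaagtcct
Sirpa at 246 of another transcript: tactctccaaccatgtagaacctaactggg
Sirpa at 3922: atgagaaggaaacaggccctgttttgtaca
Cd80 at 583: agaccggggcacatacagctgtgtcgttca
Cd80 at 872: ttcaatacgactcgcaaccacaccattaag
Cd80 at 1457: aaaggagaggtgcctagtcttactgcaact
Cd80 at 2489 of a predicted transcript: gattcctggaagtggcttttgctctttgga

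Compared with LPS alone, CRL1505 + LPS macrophages had more *Cd274*, *Cd40* and *Cd86* RNA and less *Cd83* and *Havcr2* RNA. CRL1506 + LPS macrophages had more *Cd274* and less *Cd83*, *Icosl* and *Havcr2* RNA. Short of the 2-fold threshold used, *Cd86* was 1.89-fold higher with CRL1506 + LPS and *Icosl* 1.48-fold lower with CRL1505 + LPS. Of the 10 genes, 8 could be compared. At a threshold of 2-fold, 3 were higher and 2 lower with CRL1505 + LPS, where 18.3% of all 15651 genes compared were past it, 9.9% higher and 8.38% lower. With CRL1506 + LPS 1 was higher and 3 were lower, where 9.17% of 16337 genes were past it, 5.65% higher and 3.52% lower. The median log2 ratio of the 8 genes was −0.19 with CRL1505 + LPS and −0.07 with CRL1506 + LPS, beside 0.01 and −0.06 over all genes compared. Both comparisons use the same LPS array.

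**Figure D1:**
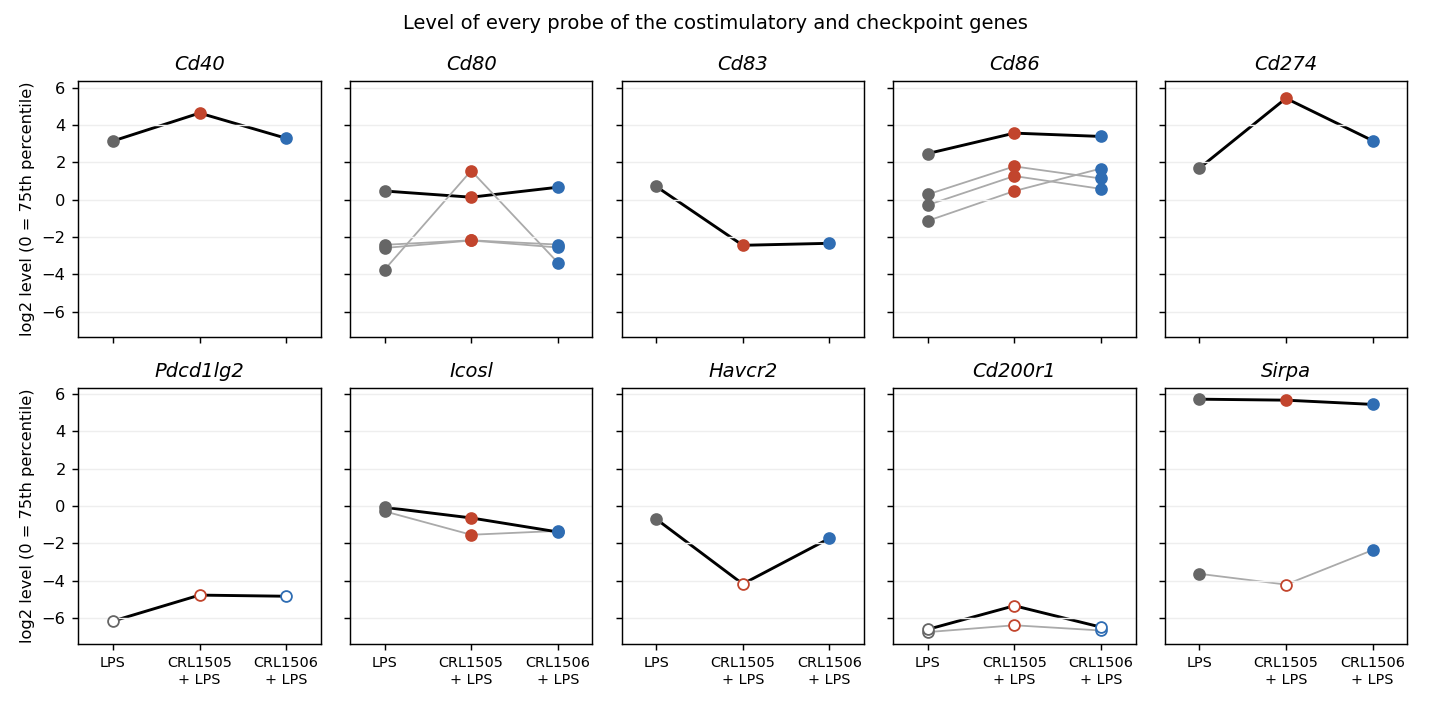
Level of each of the 19 probes (y axis, log2 signal minus the 75th percentile of the array) on the arrays of LPS, CRL1505 + LPS and CRL1506 + LPS (x axis), 1 array each. Black lines join the probe that represents the gene and grey lines its other probes, and open circles were not well above background. *Cd274* stands highest with CRL1505 + LPS (5.43), *Cd83* is low with both strains (−2.45 and −2.34), and 1 of the 4 probes of *Cd80* goes apart from the other 3.

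Among the ligands of CD28 and CTLA-4, *Cd86* was higher with both strains. Its brightest probe (chr16:36603961-36604020 of mm9, minus strand) had signals of 4110 with LPS, 6103 with CRL1505 + LPS and 7285 with CRL1506 + LPS. The log2 ratios were 1.09 (2.13-fold) and 0.92 (1.89-fold). The lowest value was thus that of LPS, and the strains differed by a log2 ratio of 0.18, below the median SD over different probes in that comparison (0.32). The 3 other probes of *Cd86* were also higher with both strains, between 2.83-fold and 3.02-fold with CRL1505 + LPS. With CRL1506 + LPS the probes at 815 and 1928 gave log2 ratios of 0.85 and 0.86. The probe at 915 of another transcript (chr16:36660860-36660919) gave 338, 711 and 2213, a log2 ratio of 2.80 (6.96-fold) with CRL1506 + LPS, and here the CRL1506 + LPS value was 2.30-fold above that of CRL1505 + LPS. By the probes at 1928 and 815 CRL1505 + LPS was the higher, by 1.61-fold and 1.57-fold. This spread of 1.95 over the probes of *Cd86* was the 203rd widest of 6147 genes with several probes. The spot of the brightest probe was marked as a background outlier on the CRL1506 + LPS array.

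By 3 of its probes *Cd80* did not move with *Cd86*, while 1 other probe was far higher with CRL1505 + LPS. The brightest probe of *Cd80* (chr16:38486772-38486831, plus strand, at 1457) gave 1023, 566 and 1105, with log2 ratios of −0.33 (CRL1505 + LPS), 0.20 (CRL1506 + LPS) and, between the strains, −0.53. The probes at 583 (chr16:38474174-38474233) and 872 (chr16:38479343-38479402) gave 0.24 and 0.40 with CRL1505 + LPS and 0.01 and 0.03 with CRL1506 + LPS, so that these 3 probes lay within 2-fold of LPS. The fourth probe, at 2489 of a predicted transcript (chr16:38495628-38495688), gave 55.1 with LPS, 1511 with CRL1505 + LPS and 67.5 with CRL1506 + LPS. That is a log2 ratio of 5.30 (39.4-fold) with CRL1505 + LPS and of 0.38 with CRL1506 + LPS, and the range of 5.63 over the probes of *Cd80* was the widest of 5514 genes measured with several probes. On the CRL1505 + LPS array, 8 of the 20 spots nearest to this probe were uneven (mean pixel signal over the median by more than 0.2 on the log2 scale), against 1 with LPS and 2 with CRL1506 + LPS. Of the 20 nearest spots 12 were at least 2-fold above LPS and 0 below, with a median log2 ratio of 2.50. Around the other 18 probes of the 10 genes at most 4 of the 20 nearest spots were uneven on any array. The spot itself was not uneven and not marked as an outlier, and the part of its surroundings in its value was not tested. Probes of the genes on either side of *Cd80* gave 0.52 and 0.80 (*Adprh*), 0.47 (*D930030I03Rik*) and 0.35 and 0.37 (*Timmdc1*) in the same comparison.

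**Figure D2:**
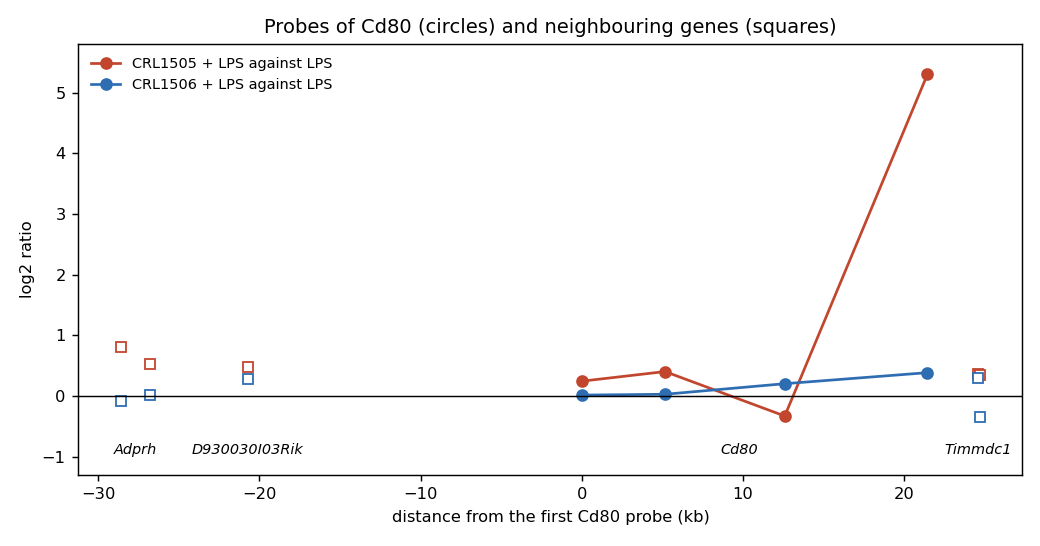
log2 ratio of each probe (y axis) of *Cd80* (circles, joined) and of neighbouring genes (squares) against its distance from the first *Cd80* probe in kb (x axis), for both strains against LPS. With CRL1505 + LPS the last *Cd80* probe lies at 5.30, while the other 3 lie between −0.33 and 0.40 and the neighbours between 0.35 and 0.80.

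The third ligand of the B7 family, *Icosl*, was lower with both strains. Its brightest probe (chr10:77541662-77541721, plus strand, at 2139) gave 710, 333 and 268, with log2 ratios of −0.57 for CRL1505 + LPS and −1.32 (2.49-fold lower) for CRL1506 + LPS. The second probe (chr10:77534559-77534618, at 363) gave 612, 178 and 278, with ratios of −1.26 and −1.05. Both probes were at least 2-fold lower with CRL1506 + LPS and only the second with CRL1505 + LPS. The probes did not give the same order of the strains, with 0.75 by the first and −0.21 by the second for CRL1505 + LPS against CRL1506 + LPS. The spot of the first probe was a background outlier with CRL1506 + LPS.

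*Cd40*, whose protein relays the signal of helper T cells to the antigen-presenting cell, was higher with CRL1505 + LPS. Its single probe (chr2:164896301-164896360) gave 6553 with LPS, 12853 with CRL1505 + LPS and 6806 with CRL1506 + LPS. The log2 ratio was 1.495 (2.82-fold) for CRL1505 + LPS. That of CRL1506 + LPS was 0.15, less than the median SD over different probes (0.21), and its sign turned with the normalization (−0.06 to 0.25).

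*Cd83*, a membrane protein of mature antigen-presenting cells that holds MHC class II and CD86 at the surface, was the gene with the lowest measured ratio of the 10 with both strains. Its probe (chr13:43898276-43898335) gave 1211 with LPS, 94.8 with CRL1505 + LPS and 138 with CRL1506 + LPS, all well above background. The log2 ratios were −3.15 (8.89-fold lower) and −3.05 (8.26-fold lower). In order from the lowest, *Cd83* was number 10 of 13241 genes measured on both arrays with CRL1505 + LPS and number 11 of 14403 with CRL1506 + LPS. Between the strains the log2 ratio was −0.11, and over other normalizations it lay on both sides of 0 (−0.51 to 0.39). *Cd83* and *Cd86*, whose proteins act together at the surface, thus stood on opposite sides of LPS at the RNA level with both strains.

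Of the ligands of PD-1, *Cd274* had the highest ratios of the 10 genes' representing probes, and *Pdcd1lg2* was not measurable. The probe of *Cd274* (chr19:29462363-29462422, plus strand) gave 2391 with LPS, 22231.5 with CRL1505 + LPS and 6244 with CRL1506 + LPS. The log2 ratios were 3.74 (13.4-fold) and 1.48 (2.78-fold), numbers 14 of 13241 and 255 of 14403 from the highest among genes measured on both arrays. All levels were apart by at least 2-fold, in the order LPS, CRL1506 + LPS and CRL1505 + LPS, and CRL1505 + LPS exceeded CRL1506 + LPS by 2.27 (4.81-fold). The probe of *Pdcd1lg2* (chr19:29545473-29545532), on the same chromosome, gave 10.4, 19.0 and 24.6, not well above background on any array, and no ratio is given.

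Of the inhibitory receptors, *Havcr2* was lower with both strains. Its probe (chr11:46294650-46294709) gave 460 with LPS, 28.7 with CRL1505 + LPS, which was not well above background, and 210 with CRL1506 + LPS. With CRL1505 + LPS it was therefore at least 10.8-fold lower, the bound being the lowest signal well above background on that array, and with CRL1506 + LPS it was 2.06-fold lower (log2 ratio −1.04). CRL1505 + LPS was at least 5.26-fold below CRL1506 + LPS. Under normexp background correction and in the deposited table the bound was closer to LPS, at log2 ratios of −1.94 and −2.08 in place of −3.43. Between the strains it was −1.08 and −1.11 in place of −2.39.

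*Sirpa*, the receptor for CD47, was bright and close to LPS with both strains. Its brightest probe (chr2:129457869-129457928) gave 39387, 26417 and 30478, with log2 ratios of −0.05 and −0.28. A second probe, to another transcript (chr2:129446667-129446726, at 246), gave 60.2 with LPS, 28.1 with CRL1505 + LPS, not well above background, and 136 with CRL1506 + LPS. By this probe CRL1505 + LPS was at least 1.41-fold below LPS, and CRL1506 + LPS was 2.41-fold above it. *Cd200r1*, the receptor for CD200, had 2 probes (chr16:44792935-44794321 and chr16:44794670-44794729) with signals between 6.19 and 12.8, not well above background on any array.

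The strains were also set against each other. Of the 8 genes compared, *Cd274* (4.81-fold) and *Cd40* (2.55-fold) were at least 2-fold higher with CRL1505 + LPS and *Havcr2* at least 2-fold lower, where 16.5% of 15806 genes were past the threshold, 9% higher and 7.45% lower. The median log2 ratio of the 8 genes was 0.20, beside 0.03 over all genes compared. By their brightest probes *Cd83*, *Cd86* and *Sirpa* differed by log2 ratios between −0.11 and 0.23, below the median SD over different probes (0.32). The other probes of *Cd86* gave 0.69, 0.65 and −1.20, and by the second probe of *Sirpa* CRL1505 + LPS was at least 3.40-fold below CRL1506 + LPS, so that for these genes the result rested on the probe.

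**Figure D3:**
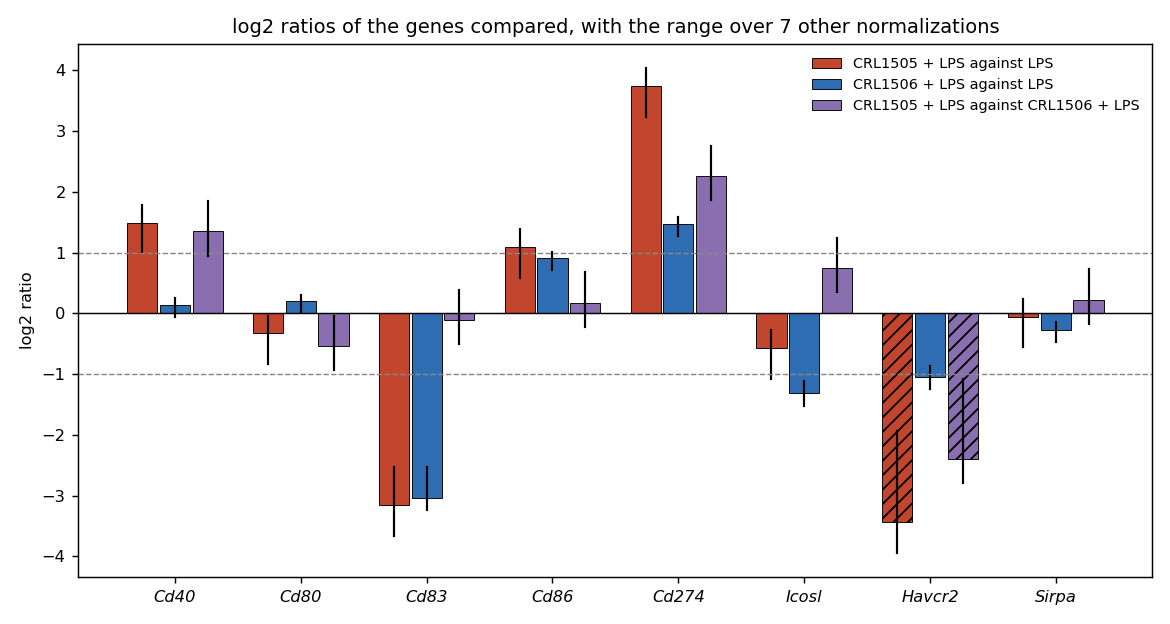
log2 ratio (y axis) of the 8 genes that could be compared, for each strain + LPS against LPS and for the strains against each other. Bars are the values from the 75th percentile scaling, black lines the range over 7 other normalizations, hatched bars are bounds, and dashed lines mark 2-fold. *Cd274* and *Cd83* stay beyond 2-fold of LPS with both strains over the whole range, and *Cd86* crosses the 2-fold line.

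How far the ratios held across normalizations differed between genes. The calls of *Cd274* and *Cd83* with both strains, of *Icosl* with CRL1506 + LPS and of *Havcr2* with CRL1505 + LPS held under every other setting with a 2-fold threshold that gave a value. For *Cd274* and *Cd83*, each with a single probe, the settings other than normalizations left the value unchanged. *Cd40* with CRL1505 + LPS ranged from 0.99 to 1.79 and was under 2-fold only with spike-in scaling. *Cd86* with CRL1505 + LPS ranged from 0.59 to 1.39 and was past 2-fold in 3 of 7 other normalizations, with 0.88 in the deposited table. With CRL1506 + LPS *Cd86* ranged from 0.72 to 1.01 and was likewise past 2-fold in 3 of 7. *Havcr2* with CRL1506 + LPS was past it in 4 of 7. Scaling moved all genes at once: over 13125 genes the median log2 ratio of CRL1505 + LPS was 0.06, against 0.35 when arrays were shifted by their median and −0.45 when they were scaled to spike-ins. Of all genes past 2-fold with CRL1505 + LPS, 54.1% were higher in the first case, 76.1% in the second and 20.1% in the third, and of the 10 genes 3 were higher and 2 lower, 3 and 2, and 1 and 3. Taken relative to the median of all genes, the log2 ratios of CRL1505 + LPS over these normalizations ran from 3.46 to 3.69 for *Cd274*, from 1.21 to 1.44 for *Cd40*, from 0.89 to 1.04 for *Cd86* and from −3.21 to −2.60 for *Cd83*. Scalings that shift a whole array by a constant give the same relative value by construction. Only quantile normalization, cyclic loess, normexp and the deposited table could therefore widen these ranges. For CRL1506 + LPS the medians were −0.07, −0.27 and −0.18, with 61.6%, 43.4% and 52.8% of genes past 2-fold being higher, and 1 of the 10 genes higher and 3 lower in each. Between the strains 54.7%, 89.0% and 23.1% of genes past 2-fold were higher with CRL1505 + LPS, and of the 10 genes 2 were higher and 1 lower, 3 and 1, and 1 and 1.

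Genes of the same pathways were counted in 6 lists, whose counts and medians move with the scaling as those of all genes do. Of 16 other ligands of the B7, TNF and SLAM families and related genes, 9 were compared with CRL1505 + LPS. Of these 5 were at least 2-fold higher and 1 lower (median log2 ratio 1.05), where 9.9% of all genes were higher and 8.38% lower. Only 7 of the 9 were measured on both arrays (median 1.12). With CRL1506 + LPS 0 of 11 were past 2-fold (median −0.02), where 9.17% of all genes were. The 5 higher ratios with CRL1505 + LPS were between 1.05 and 1.47, the lowest being a bound from a gene not well above background with LPS. In the same comparison, 0 of 10 genes were higher and 2 lower with spike-in scaling, and 2 of 9 higher and 1 lower in the deposited table. *Nectin2*, a ligand of DNAM-1 and TIGIT, had log2 ratios of 1.47 with CRL1505 + LPS and 0.11 with CRL1506 + LPS. The gene that was lower, *Vsir* (−1.40 and −0.74), encodes VISTA, which is known as an inhibitory ligand. Without spots in uneven areas its value with CRL1505 + LPS was −0.92, from another probe, and the counts became 4 higher and 0 lower of 8.

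Of 18 other inhibitory receptors and ligands, 15 were compared. With CRL1505 + LPS 3 were higher and 3 lower (median 0.33), where 9.9% and 8.38% of all genes were. With CRL1506 + LPS 3 were higher and 1 lower (median 0.10), where 5.65% and 3.52% of all genes were. Measured on both arrays were 12 and 13 of the 15 (medians 0.29 and 0.10). The others were bounds, from genes well above background on 1 of the 2 arrays, and each of these counts held at least 1 bound. In the authors' log2 values, 2 were higher and 3 lower with CRL1505 + LPS, and 1 higher and 1 lower with CRL1506 + LPS. *Lgals9*, which encodes the TIM-3 ligand galectin-9, had ratios of 1.63 and 0.41, so that with CRL1505 + LPS this ligand was higher where *Havcr2* was lower. The inhibitory receptor *Cd300a* had ratios of −1.48 and −0.91, while its relative *Cd300lf* had 0.14 and 1.95 (3.87-fold higher with CRL1506 + LPS). Without uneven areas 2 were higher and 2 lower of 13 with CRL1505 + LPS, and 2 higher and 0 lower with CRL1506 + LPS.

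Downstream of CD40, 2 of 12 genes were at least 2-fold higher with CRL1505 + LPS and 0 lower (median 0.10). With CRL1506 + LPS 0 of 12 were past 2-fold (median −0.37). For this list and those that follow, 18.3% of all genes were past 2-fold with CRL1505 + LPS and 9.17% with CRL1506 + LPS. The counts are small and were not tested against these shares. Without uneven areas 1 of 11 was higher with CRL1505 + LPS, with spike-in scaling 0 of 12 were higher and 3 lower, and in the authors' log2 values 0 were past 2-fold. Of 9 genes that act below the inhibitory receptors 0 were higher and 1 lower with CRL1505 + LPS, and 0 of 9 were past 2-fold with CRL1506 + LPS (medians −0.11 and −0.21). Of 6 genes of surface turnover, 1 was higher and 1 lower with CRL1505 + LPS and 0 were past 2-fold with CRL1506 + LPS (medians 0.18 and −0.13). The higher one was *Cmtm6*, whose protein keeps PD-L1 at the cell surface, with ratios of 1.80 (3.48-fold) and −0.25, and its probe lay in an uneven area, without which it had no value. Of the 5 counter-receptors on T cells 3 could be compared, of which 1, *Cd28* (−1.44 and −0.44), was lower with CRL1505 + LPS and 0 were past 2-fold with CRL1506 + LPS (medians −0.78 and −0.51).

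**Figure D4:**
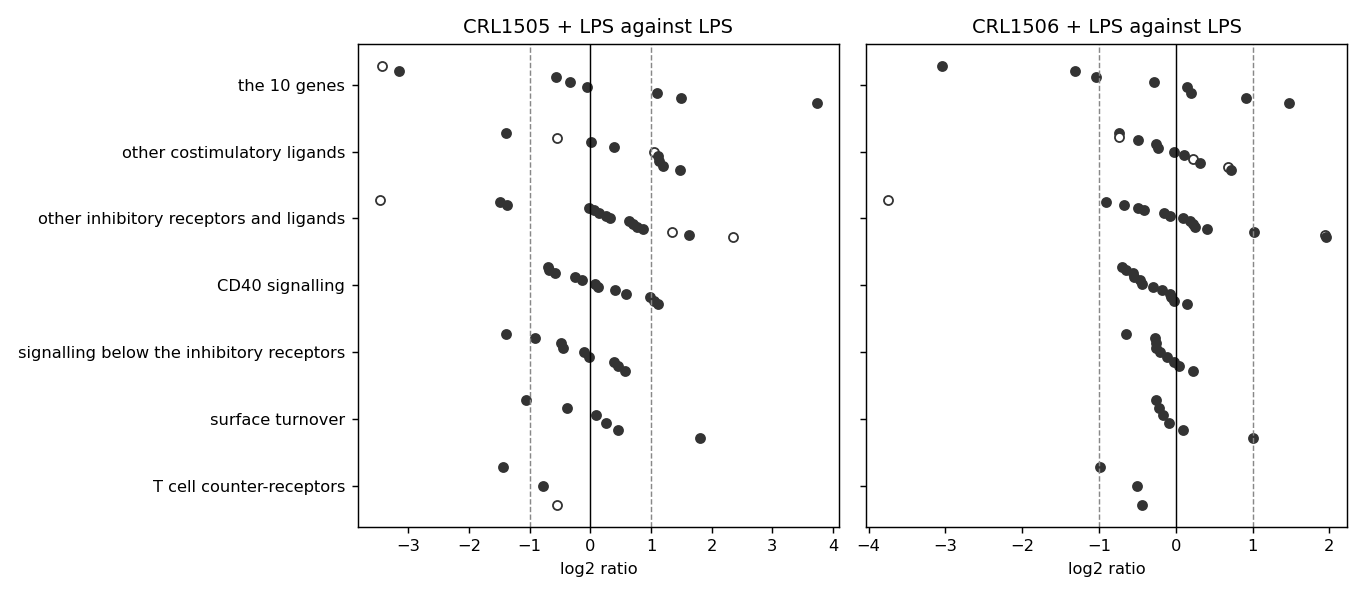
log2 ratio (x axis) of each gene that could be compared, by list (rows), for CRL1505 + LPS (left) and CRL1506 + LPS (right) against LPS, with open circles for bounds and dashed lines at 2-fold. In the list of other costimulatory ligands 5 of 9 genes lie past the right dashed line with CRL1505 + LPS (0 of 10 with spike-in scaling, not shown) and 0 of 11 with CRL1506 + LPS.

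The promoters of *Cd274* and *Havcr2*, the genes of the 10 that the strains separated most, in opposite directions, are printed for context. They are the 250 bases before the start of the gene in RefSeq on GRCm38.p6, and 5 of the 10 genes had an entry there. Letters searched on both strands were GGGA and TTTCC with any 1 base between them for NF-kappaB, GAAA and GAAA with any 2 bases between them for an interferon response element (ISRE), TTCNNNGAA for a STAT site (GAS), TGANTCA for AP-1 and GAGGAAG for PU.1, and matches are in capitals.
Cd274 promoter (chr19:29367188-29367437, plus strand): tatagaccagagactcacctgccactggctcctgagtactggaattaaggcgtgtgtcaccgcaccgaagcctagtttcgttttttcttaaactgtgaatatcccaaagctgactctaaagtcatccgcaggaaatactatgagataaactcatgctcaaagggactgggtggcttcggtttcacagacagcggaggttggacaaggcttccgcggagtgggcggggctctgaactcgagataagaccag
Havcr2 promoter (chr11:46454681-46454930, plus strand): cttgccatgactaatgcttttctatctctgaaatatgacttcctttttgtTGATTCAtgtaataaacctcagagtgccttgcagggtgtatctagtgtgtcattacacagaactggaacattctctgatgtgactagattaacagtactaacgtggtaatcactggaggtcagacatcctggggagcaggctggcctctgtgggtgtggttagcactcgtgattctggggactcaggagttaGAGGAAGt

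The window of *Havcr2* held TGATTCA, a match to the AP-1 letters, at −200 to −194 from the start and GAGGAAG at −8 to −2, and that of *Cd80* held TGATTCA at −42 to −36. The windows of *Cd274*, *Icosl* and *Pdcd1lg2* held none of these letters. Among 32851 promoters of this length, 0.411% held the NF-kappaB letters, 3.44% those of ISRE, 8.30% those of GAS, 7.81% those of AP-1 and 13.6% those of PU.1. A match is a run of letters and was not tested as a binding site. Only these exact letters in this window were searched, so their absence does not show that a site is missing.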

How the data were processed

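The authors deposited for each of the 3 arrays the spot intensity output of Feature Extraction (version 12.0.3.1 in the files, another in the study's methods), background-subtracted and not normalized between arrays. A second deposited file holds log2 values that the authors had normalized between arrays (median 6.86 over gene spots on each array). From each log2 processed signal the 75th percentile over gene spots was subtracted, outlier spots (241 to 467 per array) were left out, repeated spots were averaged, and the brightest probe represented a gene. Genes well above background on neither array, or with a bound under 1-fold, were not compared. The 2-fold threshold is that of the methods, whose t-test was not run for lack of replicates. Precision is limited by 1 array per condition.

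Members and lists were chosen with earlier results of these data known. All members are named. Of the lists, genes are named that were measured on both arrays and past 2-fold the same way under the median shift, quantile, cyclic loess, normexp (offset 50) and the deposited table, at most 3 higher and 3 lower per strain. Some list genes were also searched under older symbols. The settings without background outlier spots and without uneven areas were added after seeing the data. A spot lay in an uneven area if it was uneven or at least 5 of its 20 nearest spots were. Probe coordinates are mm9, as in the files, and promoters are from RefSeq. Transcript position is as in the files, and whether a probe lies in coding sequence was not analysed here. Used were Python 3.11.15, pandas 2.3.3, NumPy 2.4.6, matplotlib 3.10.9 and R 4.3.3 with limma 3.58.1. The procedure was tested on simulated data whose only noise was that of repeated spots. Those data held no bounds and no disagreement between the probes of a gene, so these were not tested.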

Additional observations from a re-analysis of the deposited data

How the results depend on the processing

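Over 16 settings, the counts of genes past 2-fold stayed within 1.5 times of 5 with CRL1505 + LPS, 4 with CRL1506 + LPS and 3 between the strains. The exception was a threshold of 4-fold, with 3 and 1 for the strains against LPS. The median log2 ratio of the genes compared depended more on the setting. For CRL1505 + LPS it was −0.19, against 0.10 with a shift by the median, −0.70 with spike-in scaling, 0.52 without a filter on dim probes and 0.54 with the mean over a gene's probes. For CRL1506 + LPS it was −0.07, against 0.15 with the mean over probes. With the mean over probes *Cd80* had a log2 ratio of 1.40 with CRL1505 + LPS, and 0.10 when spots in uneven areas were also left out. Of 333 values of single genes under other settings 263 moved by less than the SD between probes, 70 by more, and 0 called values changed sign. Part of the 263 was fixed in advance. The 19 probes had 0 outlier spots, and genes with a single probe keep their value under a mean over probes. The count is therefore no measure of stability. No paired analysis was possible because each condition has 1 array, and a fit with the slide as a block was not run for the same reason. No leave-one-out was possible either. Signals of *Pdcd1lg2*, *Cd200r1* and, with CRL1505 + LPS, *Havcr2* were limited by background.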
